A study of Mus musculus with 17 samples.

Results

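The 10 libraries of perigonadal white adipose tissue (pWAT) from females, of 17 libraries in all, were split by the amount of ovarian RNA they carried. The split used the deposited normalized count of *Cyp11a1*, which encodes the enzyme that makes the first steroid from cholesterol. The 5 libraries with a count of at least 6000 were called ovary-rich, and the 5 below it ovary-poor. The rich side held 3 WT and 2 U9-KO females, and the poor side 2 WT and 3 U9-KO females. Both sides are therefore descriptions made from the data and are not groups of the study.

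Each library came from a portion of the perigonadal fat of 1 mouse, the rest of which was fixed for histology. All mice were C57BL/6J on standard chow without treatment, and the labels do not give their age. U9-KO mice are homozygous for a germline deletion of the lncRNA *U90926* and were compared with WT littermates from heterozygous parents, so the deletion is present in every cell type. The 7 male libraries, 3 WT and 4 U9-KO, come from fat beside the testis and served here as pWAT without an ovary. RNA was enriched with oligo(dT) beads and sequenced from directional libraries.

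Perigonadal fat of a female mouse lies against the ovary, the oviduct and the uterine horn, so a dissected pad can carry fragments of these organs. The ovary makes steroids in the corpus luteum and in thecal cells, while granulosa cells surround the oocyte, convert androgens to estrogens and secrete inhibin and anti-Müllerian hormone. Cholesterol enters the mitochondrion through StAR, is cleaved by CYP11A1 with electrons from FDXR and FDX1, and is turned into progesterone by 3β-HSD. Fat cells instead store lipid and secrete adiponectin, adipsin and leptin.

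The deleted gene, *U90926*, was listed at 0 in 6 of 8 WT libraries, at 1 in the other 2, and at 0 in all 9 U9-KO libraries, so at this depth it does not check the genotype labels. Summed normalized counts were between 20243688 and 28620744 in the females, where U9-KO female 3 had the highest. Reads in genes, estimated from the steps between low values, were between 19.7 and 27.6 M over all 17 libraries. In bulk tissue, fewer cells of a type and less RNA per cell cannot be told apart.

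Below, female libraries are given in falling order of *Cyp11a1*. The rich side is U9-KO female 1, WT female 4, WT female 5, WT female 2 and U9-KO female 5. The poor side is WT female 3, U9-KO female 4, U9-KO female 3, U9-KO female 2 and WT female 1. A difference is the mean log2(normalized count + 1) of the rich side minus that of the poor side. Since the libraries were chosen by their *Cyp11a1*, these differences are descriptions and have no test. Tests are given only for females against males and for genotype, which the split did not use.

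*Cyp11a1* (ENSMUSG00000032323, chromosome 9 of GRCm38, 58006411 to 58027023) had 71595, 54629, 14293, 12991 and 9197 normalized counts on the rich side. On the poor side it had 4310, 3007, 1615, 1493 and 597. The members closest to the threshold were U9-KO female 5 with 9197 and WT female 3 with 4310, 2.13-fold apart, within a range of 119.9-fold over all females. U9-KO female 1 and WT female 4 together held 72.7% of the summed female count, and the 5 poor libraries held 6.34%. The males had between 20 and 135 (median 42), and the lowest female was 4.42-fold above the highest male. Poor thus means less *Cyp11a1*, not none, and other ovarian genes need not follow. The 16 granulosa genes summed to between 6824 and 27472 on the rich side. On the poor side they summed to between 5726 and 8134, with U9-KO female 3 highest. The 17 oocyte genes summed to between 455 and 3425 on the rich side and between 179 and 506 on the poor side, again with U9-KO female 3 highest there.

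Further ovarian markers, which the split did not use, were *Star* and *Inha*. *Star*, which encodes the carrier that brings cholesterol into the mitochondrion (ENSMUSG00000031574, chromosome 8, 25806555 to 25815982), had 8440, 5615, 3528, 2184 and 1680 on the rich side. On the poor side it had 1607, 2118, 350, 680 and 1472, against 76 to 158 in males (median 114). The sides overlapped only through U9-KO female 4, which lay above U9-KO female 5. *Inha*, the alpha subunit of inhibin (ENSMUSG00000032968, chromosome 1, 75507077 to 75510366), had 4018, 7239, 1070, 781 and 961 on the rich side. On the poor side it had 468, 329, 958, 334 and 227, against 27 to 49 in males (median 37). U9-KO female 3 was high for *Inha* among the poor libraries, and lay above WT female 2. The 5 highest females by *Star*, and likewise by *Inha*, shared 4 libraries with the rich side.

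**Figure D1:**
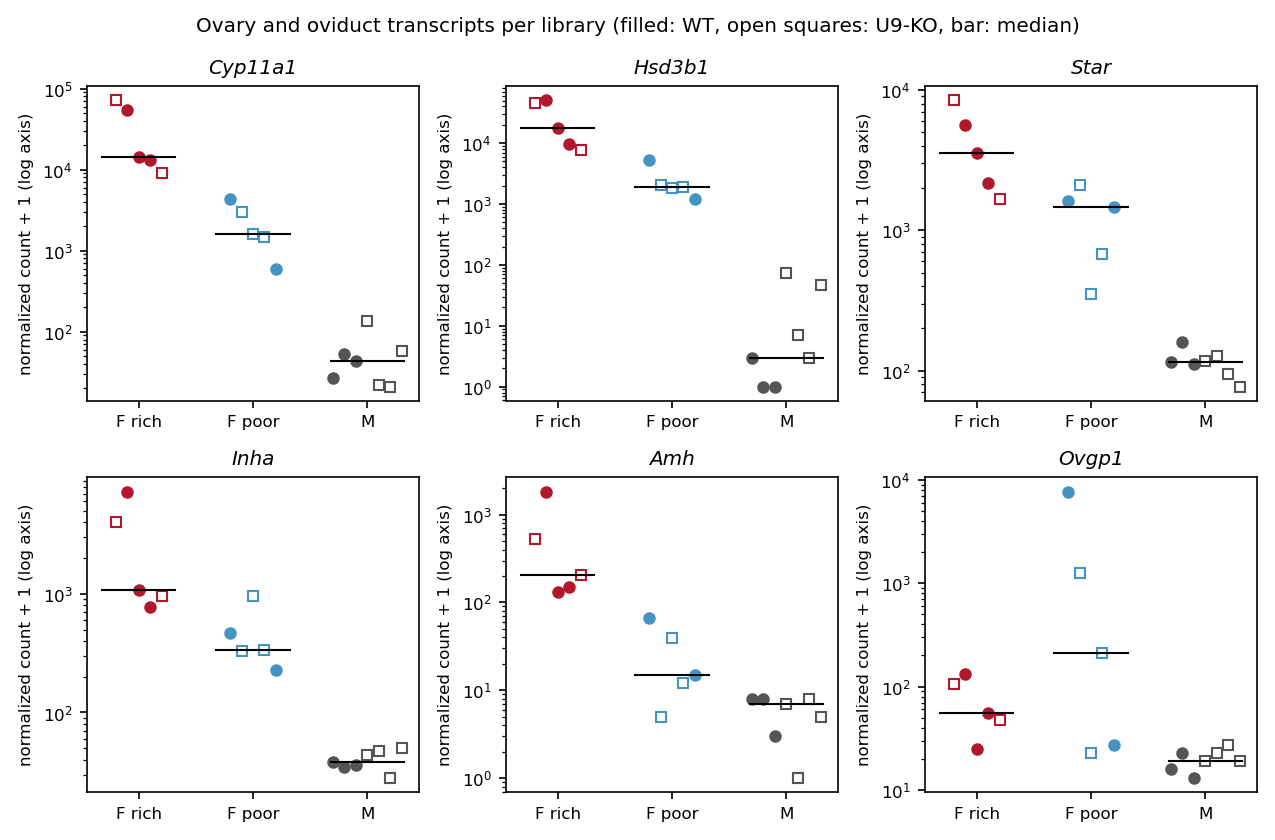
Normalized counts (plus 1, log axis) of 6 transcripts in the 5 ovary-rich and 5 ovary-poor female libraries and the 7 male libraries, with 1 point per library, open squares for U9-KO, filled circles for WT, and a bar at the median. *Cyp11a1*, *Hsd3b1* and *Amh* do not overlap between the sides, *Star* and *Inha* do, and *Ovgp1* is highest in WT female 3 on the poor side with 7684.

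Females were then compared with males. In limma's test of females minus males, with genotype as a covariate and Benjamini-Hochberg adjustment over 26289 genes, 7617 genes were called higher in females (29.0%) and 2860 lower (10.9%). This split of the calls moved with the scaling, to 5895 higher and 4368 lower with median-of-ratios factors over all libraries and to 4661 higher and 5743 lower after quantile normalization. *Cyp11a1*, the gene of the split, differed by 7.25 on the log2 scale and is given as a description. *Star* was 4.07 higher in females (SE 0.46, adjusted p = 1.22e-06 in limma) and *Inha* 4.49 (SE 0.56, adjusted p = 4.09e-06). Of the luteal and steroidogenic genes other than *Cyp11a1*, 8 of 11 were called higher in females, as were 12 of 16 granulosa genes. The same held for 15 of 17 oocyte genes, 4 of 5 thecal genes and 9 of 9 genes of ciliated cells. No gene of these lists was called lower. Genes near 0 in males passed the filter through the females and could not be called lower. In males the oocyte genes summed to between 83 and 95 and the ciliated ones to between 154 and 205. Every poor library was above every male for 6 of these 11 luteal genes and for 9 of the 16 granulosa genes, against 11.3% of all genes. Every one of the 10 females was above every male for 6 of 11 and 9 of 16, against 9.12% of all genes.

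The genotypes were then compared for the 3 markers. Since *Cyp11a1* made the split, its value is a description of how the genotypes fell. The mean of *Cyp11a1* was 17364 ± 21615 for WT and 17381 ± 30470 for U9-KO (normalized counts, SD, n = 5 per genotype), without a test. For *Star* and *Inha* the genotypes were compared by exact permutation, two-sided, which gave p = 0.897 and p = 0.730. The smallest p this design allows is 0.0079. Both values were above 0.05 without adjustment. limma called 0.0%, or 0 of 24825 genes, for genotype in females, with 553 (2.23%) at an unadjusted p under 0.05. With log2 *Cyp11a1* as a covariate it again called 0, with 646 at an unadjusted p under 0.05. A p above the threshold does not show that the genotypes carried equal amounts of ovary, since the SD within each genotype was larger than its mean for *Cyp11a1* and *Inha*.

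Over all 24825 genes tested in females, the sides did not overlap for 214 genes that were higher in the rich libraries (0.862%) and for 101 that were lower (0.407%). Of the former, 101 differed by at least 1 on the log2 scale (0.407%) and are called added below, and of the latter 15 did (0.0604%). The median difference over all genes was 0.01. The asymmetry was also one of level, as 12 of the 15 lower genes had a female mean under 10 normalized counts, against 21 of the 101 added ones. Among the added genes 77 had every male below every rich library, and 72 were called higher in females by limma, where 29.0% of all genes were. The 2 libraries highest in *Cyp11a1* were also the 2 highest for 81 of them, and for 10.8% of all genes. The added genes were chosen for being high in the rich females, so these counts describe them and support nothing. Of the 101, 12 belong to a listed ovarian class. The added genes summed to 1.13% and 1.20% of all normalized counts in U9-KO female 1 and WT female 4, to between 0.233% and 0.322% in the other rich libraries, and to between 0.0675% and 0.148% in the poor ones.

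Genes of the steroid pathway were among the added ones. *Hsd3b1*, which encodes the 3β-HSD that makes progesterone (ENSMUSG00000027871, chromosome 3, 98852194 to 98859794), had 45985, 50452, 17839, 9769 and 7574 on the rich side. On the poor side it had 5245, 2066, 1808, 1913 and 1222, and males had between 0 and 73 (median 2). The order of the libraries was nearly that of *Cyp11a1*, with a difference of 3.21. *Fdxr*, the reductase that feeds electrons to CYP11A1, had 4377, 6386, 2453, 1372 and 1141 against 1029, 1004, 465, 568 and 443. *Fdx1*, the ferredoxin between them, had 8209, 6246, 1814, 2190 and 2521 against 895, 1112, 1166, 902 and 916. Both were separate between the sides but by less, with differences of 1.96 and 1.81, and unlike *Hsd3b1* the poor libraries lay at or near the male levels of 663 to 1102 for *Fdx1*. *Nr5a1*, the transcription factor SF-1 that drives steroid enzymes, had 1966, 2944, 718, 635 and 472 against 380, 224, 143, 238 and 98, with at most 10 in males. Its difference was 2.41, again without overlap.

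Hormone receptors of the corpus luteum were added as well. *Lhcgr*, the receptor for luteinizing hormone (chromosome 17, 88716481 to 88791990), had 6583, 2545, 392, 1982 and 1796 on the rich side and 153, 322, 276, 96 and 58 on the poor side. Males had between 13 and 41 (median 33). WT female 5 was the lowest rich library here and stood close to the highest poor one. *Prlr*, the prolactin receptor, had 8612, 6202, 1781, 1924 and 1775 against 1272, 1149, 1107, 1484 and 1048. Its poor side lay within the male range of 966 to 1672, and females minus males did not pass in limma (0.74, SE 0.37, adjusted p = 0.125). *Ptgfr*, through which prostaglandin F2α ends the life of the corpus luteum, had 5299, 2773, 530, 1173 and 1084 against 686, 419, 672, 538 and 913, so its sides overlapped. *Scarb1*, which takes up lipoprotein cholesterol and is also active in fat, had 14295, 7381, 3753, 4698 and 5092 against 2661, 3233, 5761, 4145 and 3470, a difference of 0.75 with overlap.

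Leaving out *Cyp11a1*, whose separation the split fixed, 11 of 11 luteal and steroidogenic genes had a difference above 0, as did 51.0% of all genes, and 6 did not overlap, beside 0.862% of all genes. Their median difference was 1.96, against 0.01 for all genes. Without the 2 libraries highest in *Cyp11a1* this median was 1.18. *Nr5a1* binding sites are known to lie before many of these genes, which prompted a look at the sequences. Of the 33 luteal, granulosa and thecal genes, 24 had a start in RefSeq's promoter table (GRCm38.p6). The SF-1 motif AAGGTCA, on either strand of the 250 bases before the start, was found in 1 of them, *Amhr2*, and in 4.70% of all 27025 genes of the table. The window of *Hsd3b1*, whose sides were far apart, holds none. It lies at chr3:98859795-98860044 on the minus strand and is shown with that of *Amhr2*, at chr15:102445117-102445366 on the plus strand, where capitals mark the motif. Both read 5′ to 3′ towards the start and overlap no annotated GENCODE exon.
Hsd3b1: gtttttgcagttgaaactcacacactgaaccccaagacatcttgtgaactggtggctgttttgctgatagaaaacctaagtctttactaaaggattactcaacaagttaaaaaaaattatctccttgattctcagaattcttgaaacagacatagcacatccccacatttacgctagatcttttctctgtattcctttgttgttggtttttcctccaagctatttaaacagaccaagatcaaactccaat
Amhr2: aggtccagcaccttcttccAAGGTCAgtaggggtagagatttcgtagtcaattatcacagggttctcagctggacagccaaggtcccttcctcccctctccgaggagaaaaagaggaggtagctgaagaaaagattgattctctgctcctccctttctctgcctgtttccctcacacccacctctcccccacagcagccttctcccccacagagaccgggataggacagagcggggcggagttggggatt
These letters describe the windows and say nothing of whether the factor binds there. *Amhr2*, the receptor for anti-Müllerian hormone, had 485, 1033, 382, 252 and 277 normalized counts against 377, 362, 107, 168 and 87, with overlap and a difference of 1.19. Of 15 adipocyte genes with a window, 1 held a C/EBP palindrome, which 0.185% of all genes hold, and none held a DR1 repeat, which 0.0407% of all genes hold.

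Granulosa cell genes were added in a different order of libraries. *Amh*, which encodes anti-Müllerian hormone of growing follicles (ENSMUSG00000035262, chromosome 10, 80805243 to 80807648), had 523, 1817, 130, 149 and 204 on the rich side. On the poor side it had 65, 4, 38, 11 and 14, and in males at most 7. WT female 4 alone was far above the rest, and the difference of 4.13 was the largest among genes with a female mean of at least 50 and no overlap. *Foxl2*, the factor that keeps granulosa cell identity, had 1503, 1903, 642, 576 and 729 against 549, 509, 194, 392 and 444, with at most 4 in males. *Slc18a2*, a vesicular monoamine transporter, had 919, 1523, 233, 287 and 231 against 187, 78, 131, 127 and 60. *Esr2*, the estrogen receptor of granulosa cells, had 497, 590, 78, 75 and 59 against 71, 18, 59, 44 and 8, where WT female 3 overlapped the rich side. *Fshr* and *Cyp19a1*, the receptor for follicle-stimulating hormone and the aromatase, were low. *Fshr* had 47, 142, 3, 5 and 7 against 2, 13, 32, 2 and 7, and *Cyp19a1* 45, 205, 2, 0 and 0 against 5, 0, 22, 1 and 18. For both, U9-KO female 3 came next after U9-KO female 1 and WT female 4 although it was on the poor side.

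Of the 16 granulosa genes, 15 had a difference above 0, as did 51.0% of all genes, with a median of 1.23. The sides did not overlap for 3 of them, beside 0.862% of all genes that were higher. Without the 2 libraries highest in *Cyp11a1* the median was 0.44 and 5 of the 16 were below 0. *Kitl*, which is also made elsewhere, had a difference of -0.11. *Inhba* and *Inhbb*, the beta subunits of inhibin and activin, had differences of 0.08 and 0.26. *Inhba* had 761, 1904, 278, 155 and 295 against 327, 415, 765, 262 and 521, and every female lay above the male range of 35 to 60.

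Oocyte transcripts were present in small amounts. *Zp3*, a protein of the zona pellucida (chromosome 5, 135980099 to 135988624), had 146, 209, 54, 25 and 23 on the rich side and 8, 0, 13, 13 and 3 on the poor side, with at most 1 in males. *Nobox*, an oocyte homeobox factor, had 56, 46, 18, 13 and 7 against 4, 0, 4, 0 and 0. These 2 of 17 oocyte genes did not overlap, beside 0.862% of all genes that were higher. *Padi6*, a maternal factor of the oocyte cytoplasm, had 442, 564, 143, 100 and 25 against 37, 1, 55, 32 and 2, and *Zp2* had 284, 360, 93, 73 and 18 against 26, 0, 28, 30 and 0. All 17 genes had a difference above 0, as did 51.0% of all genes, with a median of 1.53. Without the 2 libraries highest in *Cyp11a1* the median was 0.97 and 1 of the 17 was below 0. In U9-KO female 4 the *Zp1*, *Zp2*, *Zp3*, *Zar1* and *Nobox* counts were all 0, although its *Cyp11a1* was 3007.

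The thecal genes split unevenly. *Cyp17a1*, which makes androgens in thecal cells, had 1129, 204, 2, 203 and 130 against 6, 14, 16, 126 and 3, and at most 6 in males. Its difference of 2.86 overlapped, since WT female 5 was at 2 and U9-KO female 2 at 126. *Insl3*, a thecal hormone, had between 30 and 52 on the rich side, between 28 and 90 on the poor side and between 33 and 60 in males. *Enpep*, an aminopeptidase, had a difference of -0.39. The median of the 5 genes was 0.09 and none was separate between the sides.

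**Figure D2:**
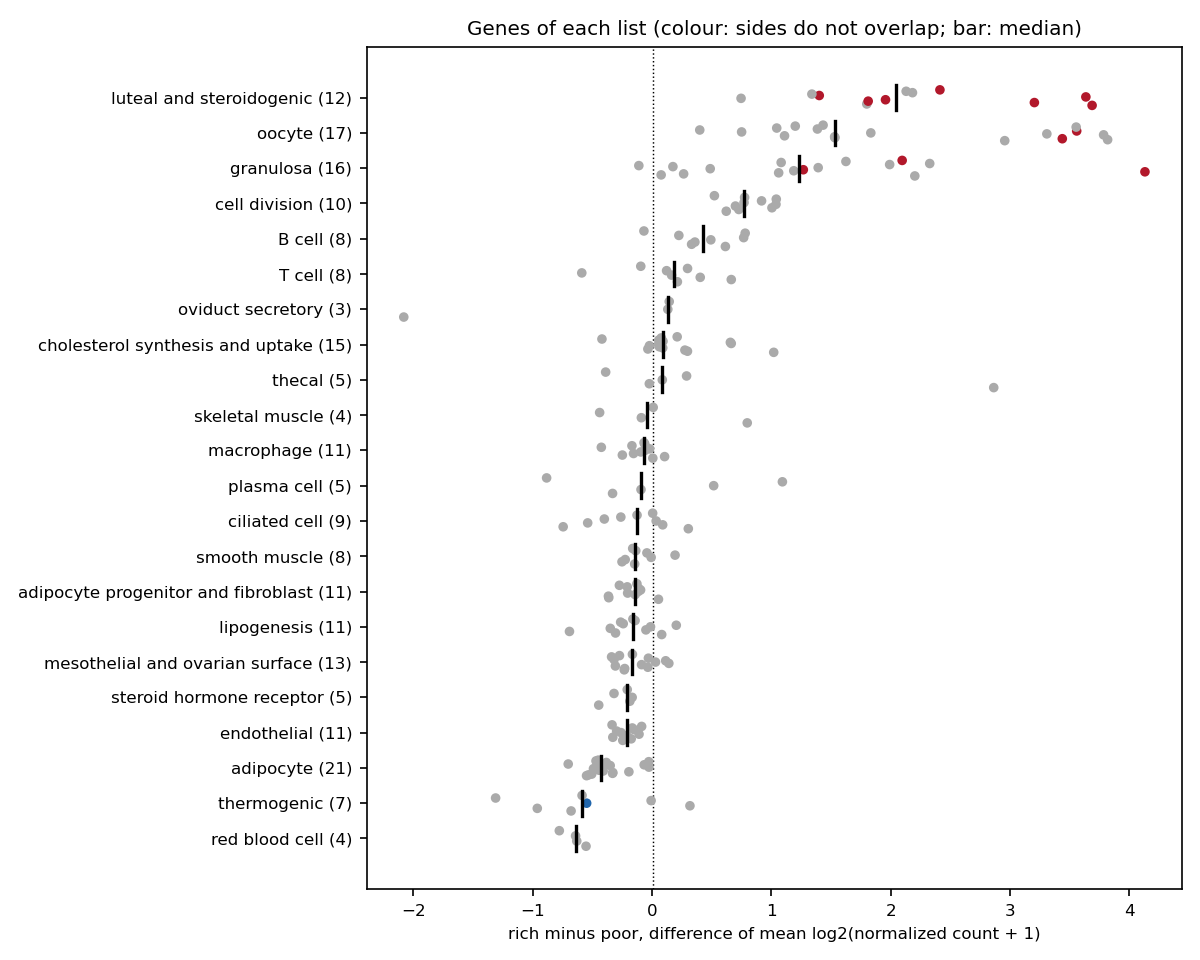
Rich minus poor difference of mean log2(normalized count + 1) for each gene of 22 lists, with the number of genes tested in parentheses, a bar at the list's median and a dotted line at the median of all genes, 0.01. Red points do not overlap and are higher in rich libraries, the blue point (*Ppargc1a*) does not overlap and is lower, and grey points overlap. The luteal list includes *Cyp11a1*, which made the split. The luteal, oocyte and granulosa lists lie to the right, and the 21 adipocyte genes all lie left of 0.

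U9-KO female 1 and WT female 4, the 2 libraries with most *Cyp11a1*, differed in which ovarian genes were higher. U9-KO female 1 was higher for 8 of 11 luteal genes other than *Cyp11a1*, and WT female 4 for 15 of 16 granulosa and 14 of 17 oocyte genes. Of all 24825 genes tested in females, U9-KO female 1 was higher for 11415 and WT female 4 for 12133. The luteal genes higher in WT female 4 were *Hsd3b1* (50452 against 45985), *Fdxr* and *Nr5a1*. *Hsd17b7*, an enzyme of estradiol and cholesterol synthesis found in the corpus luteum, had 16511 in U9-KO female 1 and 746 in WT female 4. *Sfrp4*, a secreted Wnt inhibitor of luteal tissue, had 22099 and 8947, and *Lhcgr* had 6583 and 2545. Per 1000 *Cyp11a1*, *Inha* was 56.1 in U9-KO female 1 and 133 in WT female 4, and *Amh* was 7.31 and 33.3. *Prss35*, of the serine protease family, had 4159 and 13648. *Mgarp*, a mitochondrial protein that was chosen after its values were seen, had 2873 and 9595. These are single libraries of 2 mice without replicates, and the stage of the estrous cycle is not given in the labels. *Akr1c18*, which breaks progesterone down as the corpus luteum regresses, had 685 and 357 in these libraries and between 10 and 36 in the other 8, with at most 16 in males.

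Markers of dividing cells went with the same pair. *Mki67*, a protein of dividing nuclei, had 1139, 1289, 283, 267 and 249 on the rich side and 522, 434, 283, 301 and 165 on the poor side. *Top2a*, which untangles DNA for division, had 960, 1421, 259, 224 and 260 against 518, 418, 211, 225 and 160. The 3 other rich libraries lay within the poor range for both. For 10 of 10 genes of cell division these 2 libraries were the highest 2 of the 10 females, against 10.8% of all genes, with WT female 4 above U9-KO female 1 each time. The median difference was 0.77 and no gene was free of overlap.

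Several genes outside the ovarian lists were among the 15 named genes with the largest difference without overlap. *Akr1cl*, an aldo-keto reductase (chromosome 1, 65012689 to 65032759), had 14175, 26484, 3563, 5060 and 4132 against 1717, 1237, 853, 1148 and 809, with at most 38 in males. *Acsbg1*, which activates very long chain fatty acids, had 6657, 7714, 2254, 2061 and 1337 against 676, 590, 338, 470 and 98. *Lrp8*, a lipoprotein receptor, had 1481, 394, 61, 172 and 297 against 57, 46, 41, 22 and 24. In each of these the rich and poor libraries kept apart, but for *Lrp8* WT female 5 was only 4 counts above WT female 3. *Runx2*, a transcription factor best known from bone, had 2700, 1069, 194, 321 and 460 against 137, 160, 88, 47 and 35. *Cst8*, a cystatin of reproductive tracts, had 710, 219, 36, 166 and 133 against 9, 4, 26, 8 and 6. *Serpina5*, a protease inhibitor, had 468, 282, 61, 156 and 73 against 9, 1, 17, 40 and 5. The remaining 5, *Txndc2*, *Ankrd63*, *Pik3c2g*, *Kcnab3* and *Frmd5*, had differences between 2.68 and 3.76, and each was called higher in females by limma.

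The largest gains in mean count included those of *Cyp11a1*, *Hsd3b1* and *Akr1cl*, followed by *Aldh1a1*, *Sfrp4*, *Prss35*, *Cpe*, *Abcb1b* and *Gm2a*. *Aldh1a1*, which makes retinoic acid, had 12811, 20632, 8253, 8116 and 5439 against 5110, 4248, 4086, 4504 and 4080. Its poor side lay below the male range of 6690 to 9527, so it was no marker of females. *Cpe*, a carboxypeptidase that matures peptide hormones, had 10856, 17980, 9316, 5994 and 7110 against 7699, 8823, 2755, 5814 and 5292. Its sides overlapped, while limma called it higher in females (2.18, SE 0.25, adjusted p = 2.02e-06). *Abcb1b*, a drug exporter, had 15363 in WT female 4 and 3278 in U9-KO female 1. *Gm2a*, an activator of ganglioside breakdown, had 18555 in U9-KO female 1 and 9800 in WT female 4, against 4638 to 6555 in the other 8.

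*Fkbp5*, an immunophilin induced by glucocorticoids and progesterone and chosen after its values were seen, stood apart among the added genes (chromosome 17, 28399094 to 28517527). It had 9803, 5922, 1863, 1703 and 1973 on the rich side and 1208, 1249, 993, 772 and 655 on the poor side. Males had between 2716 and 5813 (median 4962), so the 3 lower rich libraries and all poor ones lay below every male. Of the 101 added genes it was the 1 that limma called lower in females (-1.29, SE 0.45, adjusted p = 0.0283). Of 15 genes known to respond to glucocorticoids, also listed after their values were seen, 8 had a difference above 0 and 7 below, and *Fkbp5* alone did not overlap. *Sgk1*, a kinase of that list, had 5688, 2983, 1605, 984 and 1390 against 1909, 1720, 963, 714 and 580.

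**Figure D3:**
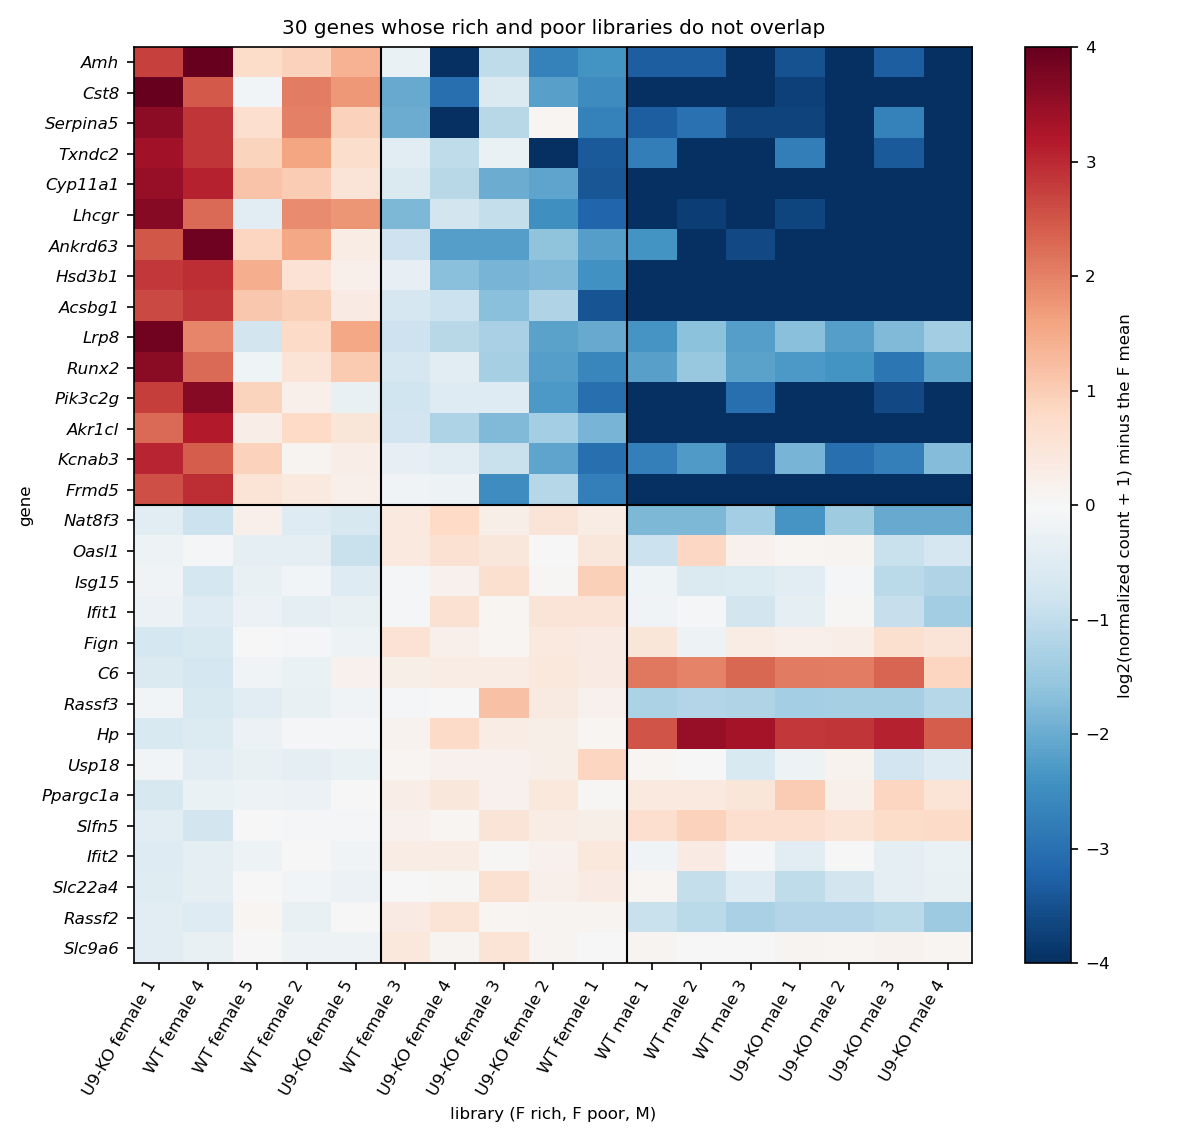
Values of log2(normalized count + 1) minus the female mean, coloured from -4 to 4, for the 15 genes with the largest positive and the 15 with the largest negative rich minus poor difference among those with a female mean of at least 50 and no overlap. Columns are the 5 rich, 5 poor and 7 male libraries, split by vertical lines. U9-KO female 1 and WT female 4 are deepest in the upper genes, where males are low, while the lower genes differ by at most 0.90 between the sides.

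Oviduct transcripts did not follow the ovarian ones. *Ovgp1*, the glycoprotein that oviduct secretory cells release onto the egg (ENSMUSG00000074340, chromosome 3, 105973711 to 105987423), had 106, 130, 24, 55 and 47 on the rich side. On the poor side it had 7684, 1256, 22, 212 and 26, and in males between 12 and 26. WT female 3 alone held 80.4% of the female sum, and U9-KO female 4 was second. The difference was -2.08, and 0.29 without these 2 libraries. limma gave 2.73 for females minus males (SE 0.95, adjusted p = 0.0281), and the call was lost without U9-KO female 4 (adjusted p = 0.0519), without WT male 3 (0.0553), after quantile normalization (0.074) and in WT libraries only (0.214).

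Genes of cilia, which move the egg along the oviduct, were highest in U9-KO female 4 but not in WT female 3. *Dnah5*, a dynein heavy chain of motile cilia, had 46, 44, 116, 56 and 67 against 105, 355, 58, 88 and 63, with at most 1 in males. *Foxj1*, the master factor of ciliated cells, had 111, 64, 294, 159 and 137 against 169, 328, 71, 113 and 35, with at most 7 in males. U9-KO female 4 was the highest female for both, and WT female 5, with 24 *Ovgp1*, lay above WT female 3 for both. *Pax8*, a factor of the oviduct epithelium, had between 63 and 232 on the rich side and between 43 and 183 on the poor side, with at most 2 in males. For 9 of 9 genes of ciliated cells every poor library was above every male, against 11.3% of all genes.

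Smooth muscle, which forms the wall of oviduct and uterus, was spread over both sides too. *Myh11*, its myosin heavy chain, had 19234, 40509, 53096, 16724 and 45303 against 72838, 101315, 7248, 25551 and 54892, while males had between 2268 and 3654. *Cnn1*, a calponin of contractile cells, had 2790, 8586, 8592, 2899 and 10797 against 13997, 15965, 807, 3346 and 10947, with at most 134 in males. The summed smooth muscle genes were highest in U9-KO female 4 and WT female 3, at 1.29% and 1.04% of the library, the same 2 libraries that led for *Ovgp1*. The lowest was U9-KO female 3 at 0.0742%. limma called 8 of 8 smooth muscle genes higher in females, where 29.0% of all genes were, and the median rich minus poor difference was -0.14.

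**Figure D4:**
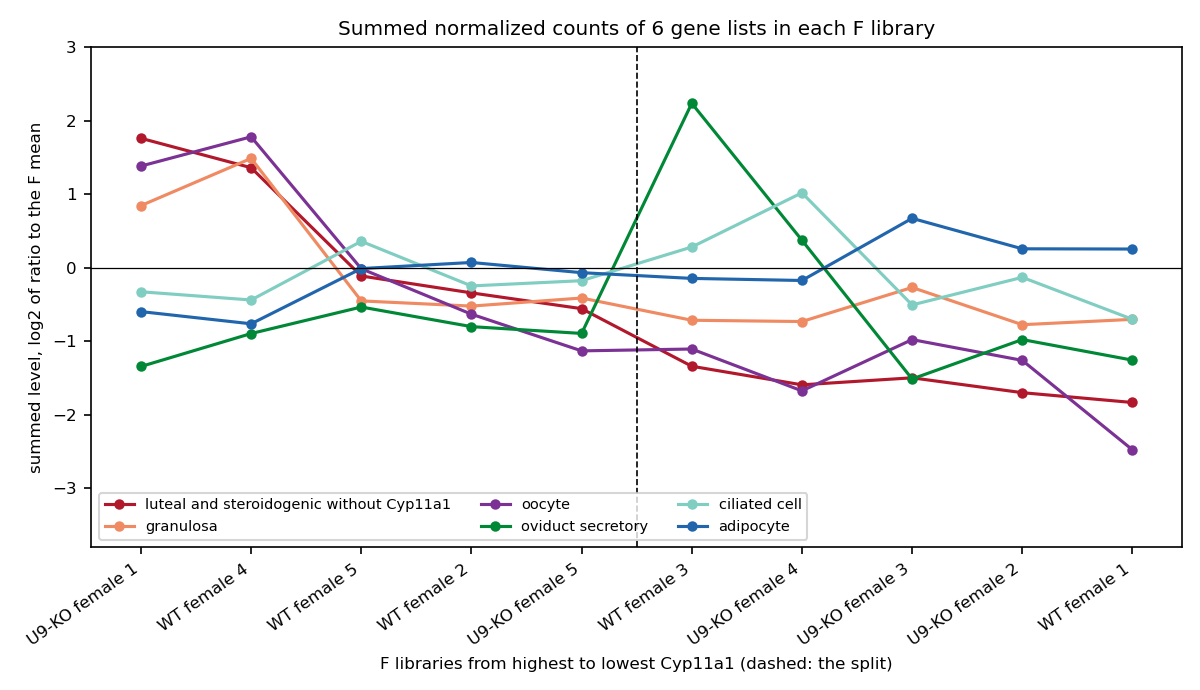
Summed normalized counts of 6 gene lists in each female library, as the log2 of the ratio to the mean of the 10 females, with libraries in falling order of *Cyp11a1* and a dashed line at the split. The luteal line leaves out *Cyp11a1*, which orders the libraries, and goes from 120962 in the first to 10014 in the last, the granulosa and oocyte lines are highest in the first 2 libraries, the oviduct secretory line peaks at WT female 3 and the ciliated line at U9-KO female 4, and the adipocyte line is lowest in the first 2 libraries.

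Lists with a median below -0.40 were those of red blood cells, thermogenic fat and adipocytes. *Adipoq*, which encodes adiponectin (chromosome 16, 23146536 to 23158028, ENSMUSG00000022878), had 27618, 30644, 60176, 58640 and 49174 on the rich side and 53506, 50319, 71968, 70236 and 72328 on the poor side. Only U9-KO female 1 and WT female 4 were far below the rest. WT female 5 and WT female 2 lay among the poor libraries, and U9-KO female 5 just below the lowest of them. *Fabp4*, the lipid carrier of fat cells, had 65303, 84388, 113870, 91449 and 88900 against 116428, 103844, 163148, 124266 and 120100. Its sides overlapped through WT female 5. *Acsl1*, which activates fatty acids for storage and oxidation, had 15078, 21246, 32359, 18001 and 20754 against 34950, 26350, 46030, 38907 and 26807. The difference of -0.70 for *Acsl1* was the lowest of the list, and those of *Adipoq* and *Fabp4* were -0.55 and -0.51.

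All 21 adipocyte genes had a difference below 0, as did 48.7% of all genes, and 0 of 21 were free of overlap, beside 0.407% of all genes that were lower. The median was -0.43. After quantile normalization 17 of the 21 were below 0, and with each library scaled to the same total 18. The median was -0.15 without the 2 libraries highest in *Cyp11a1*, -0.31 without U9-KO female 3 and -0.20 after quantile normalization. In WT females alone it was -0.29 and in U9-KO females alone -0.51. For 11 of the 21 genes U9-KO female 1 and WT female 4 were the 2 lowest females, against 6.31% of all genes. As a share of the female mean the median adipocyte gene stood at 68.3% in U9-KO female 1 and 56.3% in WT female 4, between 94.4% and 114% in the 3 other rich libraries, and between 89.5% and 151% in the poor ones. *Lep*, *Gpd1* and *Dgat2* hardly followed the split, with differences of -0.03, -0.03 and -0.07. *Lep*, the satiety hormone, had 5362, 1351, 4641, 17220 and 9229 against 1160, 3605, 9727, 10245 and 14039.

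Against males, 13 of the 21 adipocyte genes were called lower in females by limma, where 10.9% of all genes were, and none higher. In limma *Fabp4* differed by -1.01 (SE 0.17, adjusted p = 8.91e-05) and *Lpl*, the lipase that loads fat cells, by -1.38 (SE 0.22, adjusted p = 7.45e-05). *Adipoq* did not pass in limma (-0.17, SE 0.19, adjusted p = 0.521), and its estimate was 0.16 after quantile normalization. The part of the ovarian RNA in these sex differences was not tested.

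Lipid synthesis genes did not line up with *Cyp11a1*. *Fasn*, the fatty acid synthase, had 353643, 38582, 112571, 398953 and 196207 on the rich side and 18029, 29690, 931443, 429828 and 423472 on the poor side. *Scd1*, which desaturates fatty acids, had 456277, 131556, 205500, 402277 and 211873 against 85092, 112234, 1353006, 495714 and 552069. U9-KO female 3 was highest for both, and WT female 3, U9-KO female 4 and WT female 4 were lowest. The same 11 genes summed to between 0.669% and 10.7% of a poor library and to between 1.15% and 5.03% of a rich one. The largest losses in mean count included those of *Scd1*, *Fasn*, *mt-Co1*, *Cfd*, *Car3*, *Lpl*, *Gm10925*, *Fabp4* and *Acly*. U9-KO female 3 was the highest female for 8 of these 9. Without it the poor mean of *Scd1* went from 519623 to 311277, against a rich mean of 281497, and that of *Acly* from 79818 to 40193, below the rich mean of 43408. *Gm10925* and *mt-Co1* may share reads with near-identical mitochondrial sequence and are uncertain.

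**Figure D5:**
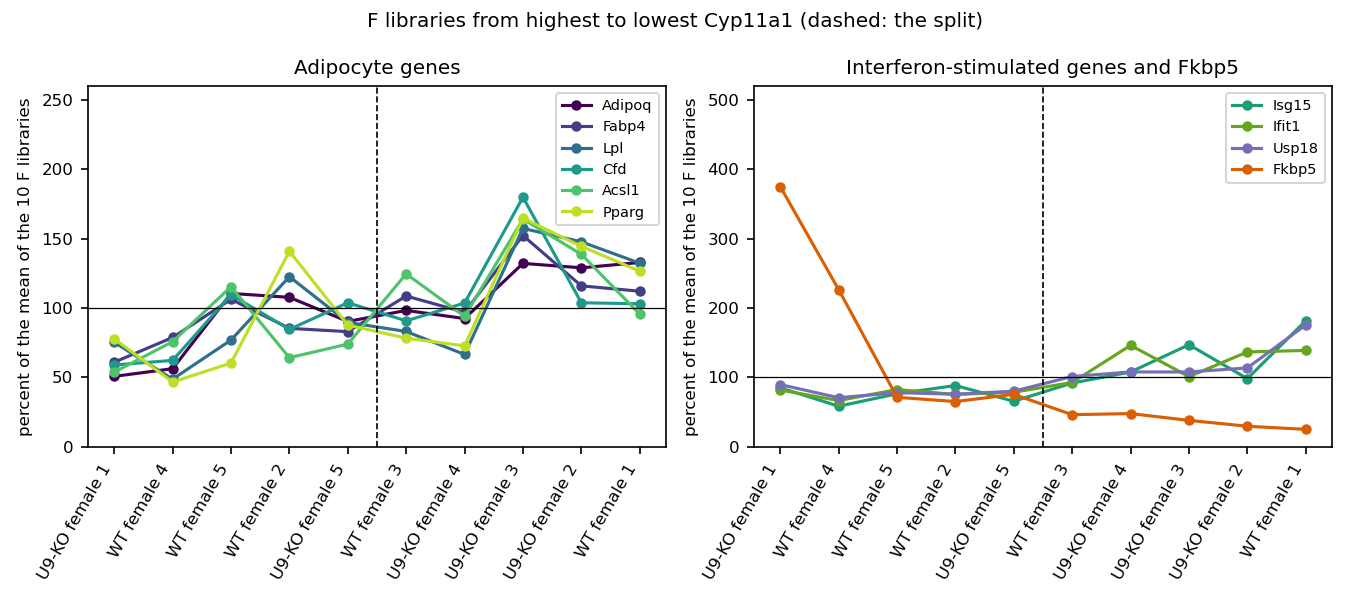
Normalized counts of 6 adipocyte genes (left) and of 3 interferon-stimulated genes and *Fkbp5* (right) as percent of the mean of the 10 females, in falling order of *Cyp11a1* with a dashed line at the split. U9-KO female 1 and WT female 4 are below 100 for all 6 adipocyte genes and the 3 interferon-stimulated genes, while *Fkbp5* is highest in those 2 libraries.

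Among genes with a mean of at least 50, those lower without overlap differed by at most 0.90, while the 15 lower genes that differed by at least 1 had a median of -1.38 and mostly very low counts. *Ppargc1a*, a coactivator of mitochondrial genes, had 119, 155, 162, 159 and 183 against 226, 257, 210, 252 and 191, a difference of -0.55. It belongs to a list of 7 thermogenic genes, of which 6 were below 0, beside 48.7% of all genes, with a median of -0.59. Of these, *Ppargc1a* alone did not overlap, beside 0.407% of all genes that were lower. *Hp*, haptoglobin, had 7188, 7613, 9310, 10573 and 10687 against 12272, 18832, 13499, 13022 and 11691, while males had between 59702 and 123863. *C6*, a complement component, had 492, 447, 664, 605 and 821 against 866, 907, 894, 979 and 921. *Hp* and *C6* were thus low in all females beside males (limma, *Hp* -2.93 with adjusted p = 1.75e-09 and *C6* -1.95 with adjusted p = 5.4e-07), and lowest in the rich ones. The largest difference of this kind among genes with a mean of at least 50 was -0.90, for *Nat8f3*, which had 41, 30, 63, 38 and 35 against 73, 97, 65, 80 and 68.

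Of the 15 genes named for the largest such differences, *Isg15*, *Ifit1*, *Ifit2*, *Oasl1* and *Usp18* are induced by interferon. *Isg15*, a ubiquitin-like protein (chromosome 4, 156199424 to 156200818), had 214, 147, 192, 222 and 165 on the rich side and 231, 271, 370, 247 and 457 on the poor side. *Ifit1*, which binds foreign RNA, had 232, 189, 234, 214 and 223 against 263, 415, 287, 388 and 394. *Usp18*, which removes ISG15 from proteins, had 123, 97, 107, 104 and 110 against 139, 148, 148, 156 and 241. The rich libraries were close together and the poor ones spread upward, with WT female 1 highest for *Isg15* and *Usp18*. In a list of 25 interferon-stimulated genes, drawn up after these values were seen, 24 had a difference below 0, as did 48.7% of all genes, and 6 were lower without overlap, as were 0.407%. The list was prompted by the 5 genes named above, and without them 19 of 20 were below 0 and 1, *Eif2ak2*, did not overlap, with a median of -0.44. *Bst2*, tetherin, was the exception at 0.28, with 2433 and 1974 in the 2 libraries highest in *Cyp11a1* and at most 1613 in the others. In males *Isg15* had between 102 and 230 and *Usp18* between 77 and 146.

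Genes of other cell types also lay mostly below 0, against 48.7% of all genes. These were 11 of 11 endothelial, 10 of 11 fibroblast, 10 of 13 mesothelial and 9 of 11 macrophage genes. The mesothelial list also holds genes of the ovarian surface, so it is not of the fat pad alone. Median differences were -0.21 for 11 endothelial genes, -0.14 for 11 genes of progenitors and fibroblasts, -0.16 for 13 mesothelial genes and -0.07 for 11 macrophage genes, and none of these genes was free of overlap. The 2 libraries highest in *Cyp11a1* were the 2 lowest females for 7 of the 13 mesothelial, 5 of the 11 fibroblast, 4 of the 11 endothelial and 3 of the 11 macrophage genes. *Pecam1*, an adhesion protein of vessels, had 3931, 3130, 4432, 4847 and 4860 against 4546, 4269, 6654, 5246 and 4438. *Col3a1*, a collagen of fibroblasts, had 33648, 42688, 61219, 43414 and 45973 against 77845, 72411, 41716, 35654 and 43043. Neither vessels nor fibroblasts separated the sides. The endothelial median was -0.06 without the 2 libraries highest in *Cyp11a1*, with 9 of 11 genes below 0. It was -0.04 when split by *Inha* (8 of 11) and -0.08 with each library scaled to the same total (9 of 11). Within WT females it was -0.10 (8 of 11) and within U9-KO females -0.28 (11 of 11). The macrophage median was 0.06 with each library scaled to the same total, 0.01 without WT female 4 and 0.05 within U9-KO females. Without the 2 libraries highest in *Cyp11a1* it was 0.11, with 2 of 11 genes below 0. Within WT females it was -0.29 and after quantile normalization -0.09, so its sign is not fixed.

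Blood and lymphoid genes were mixed. The 4 red blood cell genes had a median of -0.64, with overlap for each, and limma called all 4 lower in females, where 10.9% of all genes were. The 8 B cell genes had a median of 0.43 and 7 were above 0, as were 51.0% of all genes. The 8 T cell genes had a median of 0.19. *Igkc*, the kappa light chain of antibodies, had 9490, 356, 1093, 1297 and 1859 against 712, 1883, 9071, 2573 and 392, so U9-KO female 1 and U9-KO female 3, on opposite sides, were both high. Of 5 steroid hormone receptors all had a difference below 0, as did 48.7% of all genes, and each overlapped between the sides. *Pgr*, the progesterone receptor, had between 161 and 657 on the rich side and between 123 and 906 on the poor side, and at most 1 in males. Of 15 genes of cholesterol synthesis and uptake, 12 were above 0, beside 51.0% of all genes, with a median of 0.09 and overlap for each.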

How the data were processed

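RNA from perigonadal fat of 10 female and 7 male mice was measured by RNA-seq. The deposited values were treated as a score: the authors divided gene counts by size factors and rounded the result to whole numbers, so a count model could not be used. Per the labels, the study's methods and the submitters' processing notes, reads were aligned with STAR 2.7.3a to GRCm38, counted per gene with summarizeOverlaps and normalized with DESeq2 1.28.1. The annotation release is not given in the sources used here. The values look as if each sex had been scaled on its own, so levels between the sexes depend on scaling. The table of the whole series repeats the per-library files and was not used.

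GENCODE M21 names were found for 55141 of 55401 gene identifiers. Values were tested as log2(value + 1) with limma 3.58.1 in R 4.3.3 (Benjamini-Hochberg adjustment, threshold 0.05), after genes whose values summed to under 10 in the libraries fitted were left out. Fold changes on this scale understate changes of low genes. Other steps used Python 3.11.15 with numpy 2.4.6, pandas 2.3.3 and scipy 1.17.1. Scripts were tested on simulated data. Nothing in the labels says that the replicates share more than a group, and p-values measure the spread between these mice. Rich and poor libraries were compared by mean differences and by whether the sides overlapped, with no test.

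Named genes were *Cyp11a1*, *Star* and *Inha*, the 3 most abundant and the most extreme members of each of 22 lists, the 15 largest differences without overlap in each direction among genes with a mean of at least 50, and the 10 largest gains and losses in mean. The text gives a selection of them, and some withheld items are not reported here. Others are said to be chosen after their values were seen. The members and lists were chosen with earlier results of these data known. Alternatives covered the pseudocount (0.5), the filter, the scaling, the marker of the split, single libraries, genotype and the replicate number.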

Additional observations from a re-analysis of the deposited data

Results flagged for a closer look

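Among the 5 libraries of a genotype, 1 library stood far from the other 4 in 52 of 140 groups examined, by Dixon's test at the 95% level. Chance flags about 1 in 20 groups, but the 70 measures include *Cyp11a1* and genes chosen for large differences between the sides, and many are genes of the same list, so the number cannot be read against that share. Of the 52, 24 were U9-KO female 1 and 18 were WT female 4, the libraries with the most *Cyp11a1* of their genotypes.

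In U9-KO female 1 the normalized counts that stood above the other U9-KO females were 71595 for *Cyp11a1*, 8440 for *Star*, 4018 for *Inha*, 45985 for *Hsd3b1*, 710 for *Cst8*, 468 for *Serpina5*, 208 for *Txndc2*, 6583 for *Lhcgr*, 207 for *Ankrd63*, 6657 for *Acsbg1*, 1481 for *Lrp8*, 2700 for *Runx2*, 165 for *Pik3c2g*, 14175 for *Akr1cl*, 604 for *Kcnab3*, 1841 for *Frmd5*, 12811 for *Aldh1a1*, 22099 for *Sfrp4*, 4159 for *Prss35* and 18555 for *Gm2a*. Its summed lists with such values were 192557 for luteal and steroidogenic genes, 17604 for granulosa genes, 2599 for oocyte genes and 3880 for cell division genes. All of these were high values.

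In WT female 4 the genes were 54629 for *Cyp11a1*, 7239 for *Inha*, 1817 for *Amh*, 541 for *Ankrd63*, 7714 for *Acsbg1*, 1069 for *Runx2*, 301 for *Pik3c2g*, 26484 for *Akr1cl*, 2375 for *Frmd5*, 20632 for *Aldh1a1*, 8947 for *Sfrp4*, 15363 for *Abcb1b* and 9800 for *Gm2a*. Its summed lists were 146276 for luteal and steroidogenic genes, 27472 for granulosa genes, 3425 for oocyte genes, 9194 for macrophage genes and 5237 for cell division genes. The macrophage genes were lower there than in the other WT females, which had between 14844 and 16502, and the rest were higher.

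The 10 remaining values came from 5 other libraries. U9-KO female 3 had the highest sum of all normalized counts of the U9-KO females, 28620744, and was highest in *Rassf3* with 6762, *mt-Co1* with 660562 and *Gm10925* with 296067. U9-KO female 4 had 2401 for the oviduct secretory genes and 1569 for the ciliated cell genes. WT female 3 had 8732 for the oviduct secretory genes, against 775 to 1279 in the other WT females. WT female 2 had 10151 for the red blood cell genes, the lowest of its genotype. WT female 1 was highest in *Isg15* with 457 and in *Gm10925* with 174764.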

How the results depend on the processing

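Changing 1 choice at a time left every rich minus poor difference of the tracked genes on its side of 0, except *Ovgp1*. It was 0.29 without the 2 libraries highest in it. For *Cyp11a1* and for tracked genes without overlap, leaving libraries out cannot change the side, so this was fixed in advance. Sizes moved with the marker of the split. By *Inha*, *Star* went from 1.80 to 0.74, *Acsl1* from -0.70 to -0.16 and *Fabp4* from -0.51 to -0.17. By *Star*, *Amh* went from 4.13 to 1.99 and *Zp3* from 3.44 to 1.61. Counts without overlap depend on how many libraries must be separate, so smaller sides give more of them by construction. The 101 added genes became 157 with the same total per library, which moved the median of all genes to 0.13, 621 within WT females, 888 within U9-KO females, 42 when split by *Star*, 50 by *Inha* and 522 without the 2 libraries highest in *Ovgp1*. The 15 lower genes became 30 after quantile normalization, 436 within WT females, 378 within U9-KO females, 63 without the 2 libraries highest in *Cyp11a1* and 141 without the 2 highest in *Ovgp1*. Leaving out 1 library gave 103 to 211 added genes, the most without WT female 3 or U9-KO female 5, with 183 without WT female 2 and 186 without WT female 5, and 24 to 40 lower genes, the most without U9-KO female 3. Those last 2 settings on pairs of libraries were chosen after seeing the data.

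For females minus males, 7617 higher and 2860 lower calls became 4661 and 5743 after quantile normalization, 5895 and 4368 with median-of-ratios factors, and 3828 and 1292 in WT libraries only. The median of all genes was 0.16, -0.07 with quantile normalization and 0.06 with median-of-ratios factors, and higher genes made up 72.7%, 44.8% and 57.4% of the calls. Leaving out 1 library gave 6998 to 7807 and 2547 to 3229. *Adipoq* was 0.16 after quantile normalization, and the cause was not tested. The genotype estimate in females was 0.00 for *Cyp11a1* with itself as covariate, by construction, and -1.42 to 0.22 with 1 library left out, above 0 in the absence of WT female 4. For *Inha* it was 0.18 with that covariate and -0.70 to 0.61 with 1 library left out, above 0 in the absence of WT female 4, of U9-KO female 2 or of U9-KO female 4. limma called 0 genes for genotype under every setting run, with 410 to 1225 at an unadjusted p under 0.05.

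Replicate numbers did not pair the libraries: deviations of same-numbered females correlated between -0.44 and 0.11. With the replicate number as a replicate block, limma called 6106 genes higher and 2114 lower for females minus males and 0 for genotype.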

Other observations

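Among 25 interferon-stimulated genes, listed after values were seen, rich minus poor differences ran from -1.31 to 0.28. *Oasl1*, a member of this list, had 45, 49, 39, 40 and 27 normalized counts on the rich side and 68, 79, 71, 51 and 71 on the poor side. *Ifit2*, which binds foreign RNA, had 279, 313, 346, 404 and 359 against 494, 488, 411, 449 and 535. *Fosl2*, a subunit of AP-1 chosen after its values were seen, had 8405, 8992, 3556, 3561 and 3182 against 2432, 2207, 2974, 2228 and 2375, a difference of 1.03.

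Per 1000 *Cyp11a1*, *Inha* was between 56.1 and 133 in the rich libraries, and 109, 109, 593, 224 and 380 in the poor ones. U9-KO female 3 had the highest of these ratios with little *Cyp11a1*. No test was made.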
